A study of Penicillium oxalicum with 6 samples.

Results

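Of 9834 genes in the transcriptome of the filamentous fungus *Penicillium oxalicum*, 4 that encode non-hydrolytic helpers of cellulose degradation are described here. POX08897, named *AA9A*, and POX02308 encode lytic polysaccharide monooxygenases (LPMOs) of family AA9, and POX01524 and POX08485 encode expansin-like proteins. The genes were chosen because the study, using the log2 FPKM ratio between the same 2 strains, listed them among its downregulated plant cell wall-degrading enzyme genes. Their difference between the strains is therefore given as a description, with no test.

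LPMOs of family AA9 are copper enzymes that cut cellulose chains by oxidation, including chains on the surface of crystalline cellulose, and they open new chain ends for cellobiohydrolases. Expansin-like proteins loosen cellulose without hydrolysing it. *AA9A* and POX08485 also carry a CBM1, a small module that binds cellulose, and POX01524 carries a CBM63, a module found at the C-terminus of expansins. In filamentous fungi such genes are commonly expressed together with cellulase genes when the fungus grows on cellulose.

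mRNA was sequenced from mycelia of the mutant Δ*PoxMKK1* and its parent Δ*PoxKu70*, with 3 libraries per strain, named replicates F, S and T. In both strains POX01583, the *Ku70* homologue of non-homologous end joining, had been targeted for replacement, and in the mutant POX07948 (*PoxMKK1*), a mitogen-activated protein kinase kinase related to yeast Ste7, was additionally replaced by a G418 resistance gene. Mycelia were grown on glucose for 24 h and then shaken for 24 h at 28 °C in medium with 2% Avicel, a microcrystalline cellulose. The comparison asks how the loss of PoxMKK1 changed transcript levels under cellulose, and the study calls its libraries biological replicates.

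The libraries held between 13687087 and 14042791 expected counts, the estimated numbers of reads per gene. Levels are given as FPKM, which is corrected for gene length and library size. POX07948 had 2, 1 and 0 counts in the mutant and 592 to 753 counts in Δ*PoxKu70*. POX01583 had 942 to 1063 counts in the mutant and 1092 to 1365 counts in Δ*PoxKu70*, so reads were assigned to it in both strains. Transcript markers of conidiation were higher in the mutant: the summed FPKM of *PoxBrlA*, *PoxAbaA* and *PoxFlbD* was 915 to 996 in Δ*PoxMKK1* and 127 to 256 in Δ*PoxKu70*, and its part in the results below was not tested. In such bulk mycelium, fewer cells that express a gene and less RNA per cell cannot be told apart.

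All 4 genes passed the filter on low counts, and all 4 were lower in every mutant library than in every Δ*PoxKu70* library. Their mean FPKM was between 61.8% and 83.5% lower in Δ*PoxMKK1*. Non-overlap in this direction was found for 23.6% of the 8749 tested genes, and in the opposite direction for 35.3%. A call at an adjusted p below 0.05 and an at least 2-fold lower level (edgeR) was made for 8.93% of tested genes, and a call in either direction for 19.8%. All 4 genes met that call, which uses the contrast they were chosen on. On the log2 scale, the least changed of them, POX08485, had a lower fold change than all but 5.37% of tested genes.

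**Figure D1:**
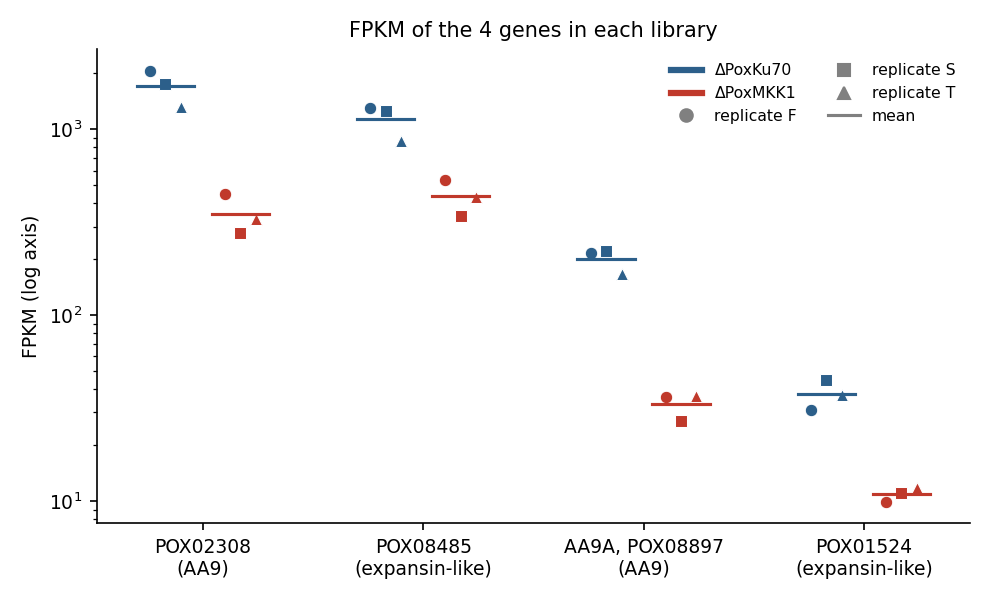
FPKM of the 4 genes (log axis) in the 3 Δ*PoxKu70* libraries (blue) and the 3 Δ*PoxMKK1* libraries (red), with symbols for replicates F, S and T and horizontal lines for the strain means. For each gene the 3 red points lie below the 3 blue points, and the order of POX02308 and POX08485 differs between the strains.

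*AA9A*, the LPMO with a cellulose-binding module, had an FPKM of 216, 223 and 166 in Δ*PoxKu70* (replicates F, S and T) and of 36.2, 26.9 and 36.9 in Δ*PoxMKK1*. The lowest parent library was 4.51 times the highest mutant library. The mean was 202 ± 31.0 (SD, n = 3) in the parent and 33.3 ± 5.60 (n = 3) in the mutant, and the fitted log2 fold change was −2.66 (SE 0.18). This was the largest fold change of the 4 genes, and 111 of the tested genes had a lower one. By FPKM rank among all genes, *AA9A* moved from positions 750 to 999 in the parent to positions 3832 to 4631 in the mutant.

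POX02308, an AA9 LPMO for which no cellulose-binding module is annotated, was the most highly expressed of the 4 genes in the parent strain. Its FPKM was 2062, 1759 and 1323 in Δ*PoxKu70* and 446, 278 and 327 in Δ*PoxMKK1*. Replicate F was the highest library of both strains, and the gap between the strains was wide, the lowest parent library being 2.96 times the highest mutant library. The means were 1715 ± 372 and 351 ± 86.4 (SD, n = 3 each), with a fitted log2 fold change of −2.36 (SE 0.25). POX02308 stood between positions 66 and 139 of all genes by FPKM in the parent and between positions 418 and 616 in the mutant, so it was still an abundant transcript without PoxMKK1.

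POX01524, the expansin-like gene with the CBM63, was the least expressed of the 4 genes in all 6 libraries. It had an FPKM of 30.8, 45.0 and 37.4 in Δ*PoxKu70* and of 9.95, 11.1 and 11.8 in Δ*PoxMKK1*. The 3 mutant libraries lay close together, with a coefficient of variation of 8.39% against 18.8% in the parent, and no library overlapped with the other strain. The means were 37.7 ± 7.10 and 10.9 ± 0.917 (SD, n = 3 each), with a fitted log2 fold change of −1.85 (SE 0.16). The lowest count behind any of these values was 171 reads, in mutant replicate F.

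POX08485, the expansin-like gene with the CBM1, had an FPKM of 1303, 1259 and 862 in Δ*PoxKu70* and of 533, 341 and 433 in Δ*PoxMKK1*. The strains were separated by the narrowest gap of the 4 genes: parent replicate T, the lowest of its strain, was 1.62 times mutant replicate F. The means were 1141 ± 243 and 436 ± 96.3 (SD, n = 3 each), and the fitted log2 fold change was −1.46 (SE 0.24), the smallest of the 4 genes. It took positions 120 to 238 of all genes in the parent and 358 to 525 in the mutant.

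The libraries of a strain did not vary in the same way for all 4 genes. In Δ*PoxKu70*, replicate T was the lowest library for *AA9A*, POX02308 and POX08485, whereas replicate F was the lowest for POX01524. In Δ*PoxMKK1*, replicate S was the lowest for the first 3 genes, and replicate F was again the lowest for POX01524. The coefficient of variation over 3 libraries ran from 15.4% to 21.7% in the parent and from 8.39% to 24.6% in the mutant.

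The order of the 4 levels changed with the strain. In Δ*PoxKu70* the FPKM order was POX02308, POX08485, *AA9A* and POX01524, and no neighbours in it overlapped, although the lowest POX02308 library (1323) was close to the highest POX08485 library (1303). In Δ*PoxMKK1* the ranges of POX02308 (278 to 446) and POX08485 (341 to 533) overlapped, while *AA9A* and POX01524 stayed apart from the others. Within each library the pair gave a clear ratio: the FPKM of POX02308 divided by that of POX08485 was 1.58, 1.40 and 1.54 in the parent and 0.837, 0.817 and 0.756 in the mutant. Thus the LPMO gene had the higher level per length in all 3 parent libraries, and the expansin-like gene in all 3 mutant libraries. In reads rather than per length, POX08485 was the higher of the pair throughout (17946 to 27845 against 13433 to 21487 counts in the parent), since the counts and FPKM values imply a length of 1523 bases for POX08485 and of 742 bases for POX02308.

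The proportions within each pair moved less. POX02308 had 8.46 ± 0.927 times the FPKM of *AA9A* in Δ*PoxKu70* and 10.5 ± 1.73 times in Δ*PoxMKK1* (SD, n = 3 each), and the ranges overlapped. Likewise, POX08485 had 31.1 ± 10.03 times the FPKM of POX01524 in the parent and 40.4 ± 11.8 times in the mutant, with overlapping ranges. The AA9 transcript pool was thus mostly POX02308 and the expansin-like pool mostly POX08485 in both strains.

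The summed AA9 FPKM was 2279, 1981 and 1489 in the parent libraries and 483, 305 and 364 in the mutant libraries, a mean of 80.0% less. The summed expansin-like FPKM was 1334, 1304 and 899 in the parent and 543, 352 and 445 in the mutant, a mean of 62.1% less. Both sums were without overlap between the strains. Over the same libraries, the summed FPKM of 8 cellulase genes, the cellobiohydrolase gene *cbh2* and 7 endoglucanase genes, was 9015 ± 1424 in Δ*PoxKu70* and 3143 ± 875 in Δ*PoxMKK1* (SD, n = 3 each), 65.1% less.

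These 8 genes are the ones that the study listed as downregulated in these libraries, so cellulase genes that did not fall are not in the sum, and the percentages describe the 4 genes beside these 8 only. Set against this sum, the AA9 and the expansin-like genes differed. The AA9 sum amounted to 22.8%, 20.5% and 20.2% of the cellulase sum in the parent and to 11.9%, 13.2% and 11.9% in the mutant, and the strains did not overlap. The expansin-like sum amounted to 13.3%, 13.5% and 12.2% in the parent and to 13.4%, 15.2% and 14.5% in the mutant, and the strains overlapped. Relative to the sum of these 8 genes, AA9 transcripts were thus lower in the mutant, and expansin-like transcripts overlapped between the strains. The largest parts of that sum were *cbh2* and *Cel5B* (POX01166), with a mean FPKM of 4085 and 2658 in the parent, so the percentages mostly reflect these genes.

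**Figure D2:**
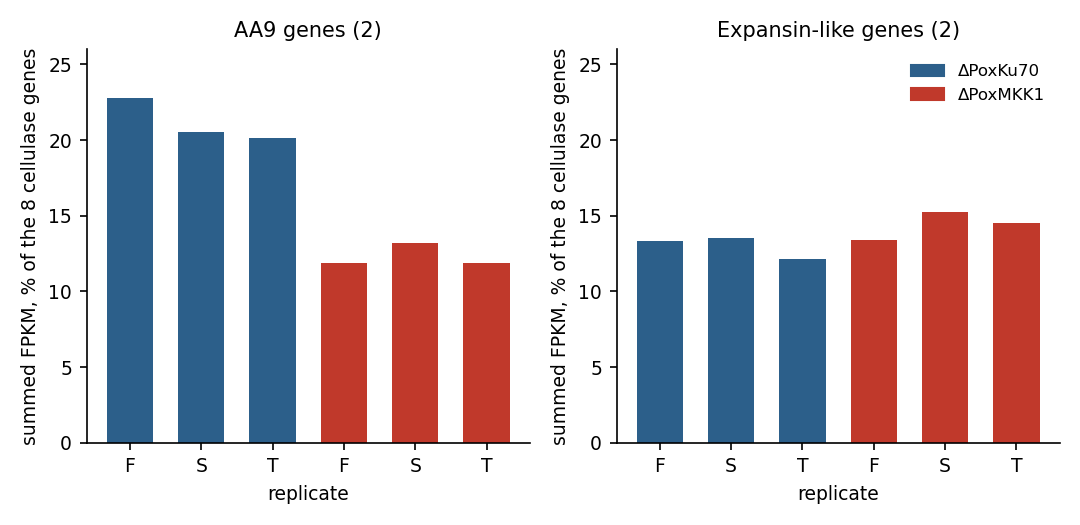
Summed FPKM of the AA9 genes (left) and of the expansin-like genes (right) as a percentage of the summed FPKM of 8 cellobiohydrolase and endoglucanase genes, one bar per library, blue for Δ*PoxKu70* and red for Δ*PoxMKK1*. AA9 bars lie between 20.2% and 22.8% in the parent and between 11.9% and 13.2% in the mutant, while expansin-like bars lie between 12.2% and 15.2% in both strains.

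Each gene was also set against *cbh2* (POX04786), the gene of a cellobiohydrolase, which releases cellobiose from chain ends, and itself one of the 8 genes. POX02308 stood at 41.7 ± 3.87% of the *cbh2* FPKM in the parent and at 22.8 ± 2.05% in the mutant, and *AA9A* at 4.93 ± 0.220% and 2.20 ± 0.307% (SD, n = 3 each). POX08485 stood at 27.7 ± 2.46% and 28.4 ± 1.81%, and POX01524 at 0.937 ± 0.220% and 0.748 ± 0.241%. The ratios of both expansin-like genes to *cbh2* overlapped between the strains, with a slightly higher mean in the mutant for POX08485 and a lower one for POX01524, whereas those of both AA9 genes did not overlap.

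AA9 is not the sole LPMO family with transcripts in these libraries. POX05645 encodes an LPMO of family AA11, a family known for oxidising chitin, and POX08813 one of family AA13, which acts on starch and here carries a starch-binding CBM20. POX05645 rose from an FPKM of 2.14, 0.75 and 2.86 in Δ*PoxKu70* to 374, 283 and 268 in Δ*PoxMKK1* (log2 fold change 7.27, SE 0.45, Benjamini-Hochberg adjusted p = 5.14e-05 in the quasi-likelihood test of edgeR). POX08813 rose from 11.6, 13.1 and 11.95 to 64.2, 88.8 and 105 (log2 fold change 2.75, SE 0.19, adjusted p = 7.99e-05, the same edgeR test). Both genes are therefore opposite in direction to *AA9A* and POX02308. The study had called both changed on the same contrast, so their adjusted p is no independent support.

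Summed over these 4 LPMO genes, FPKM was 1504 to 2292 in the parent and 677 to 921 in the mutant. The AA9 genes made up 99.4%, 99.3% and 99.0% of that sum in the parent and 52.4%, 45.1% and 49.4% in the mutant. In the mutant, POX05645 had FPKM values that overlapped those of POX02308, while in the parent it was far below both AA9 genes. The families were read from the list of genes that the study called changed in these libraries, so LPMO genes outside that list were not counted here.

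**Figure D3:**
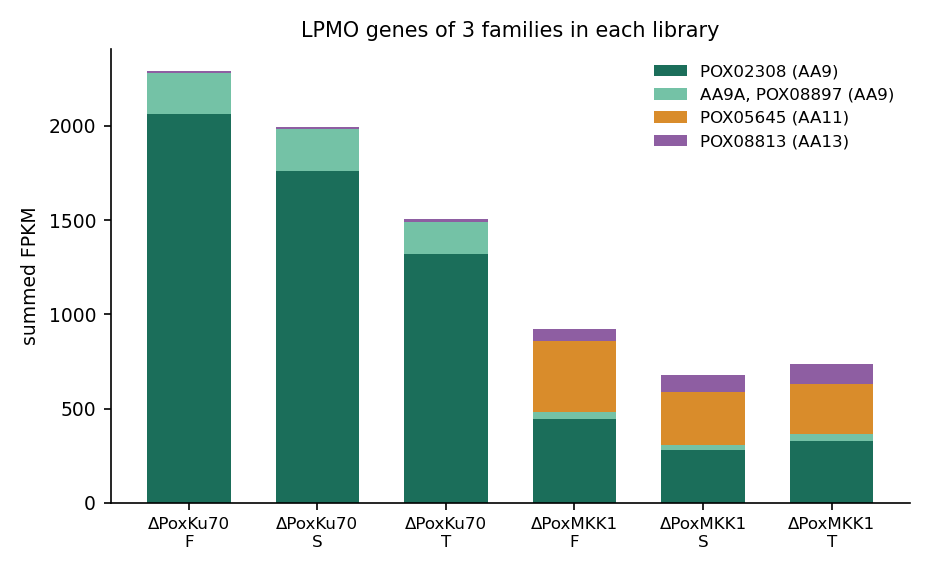
Summed FPKM of the LPMO genes POX02308 and *AA9A* (family AA9), POX05645 (AA11) and POX08813 (AA13), stacked in one bar per library. The bars of the 3 Δ*PoxKu70* libraries consist of at least 99.0% AA9 transcripts, and those of the 3 Δ*PoxMKK1* libraries of between 45.1% and 52.4%.

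Auxiliary activity (AA) families gather redox enzymes that act beside glycoside hydrolases. Of the 14 AA genes other than AA9, 9 rose and 4 fell in Δ*PoxMKK1*, with a median log2 fold change of 2.52, against 10.8% of tested genes called higher, 8.93% called lower and a median of 0.01 over all tested genes. This list, like the others below, was drawn by the study from genes changed in these libraries and is no independent evidence of a direction. Genes of family AA3 joined to AA8, the domains of cellobiose dehydrogenase, which can pass electrons to LPMOs, went in both directions. POX08758 rose from 0.243 ± 0.108 to 241 ± 10.7 FPKM and POX09233 from 44.3 ± 0.460 to 337 ± 24.0, whereas POX03523 fell from 37.9 ± 7.03 to 16.3 ± 1.34 (mean and SD, n = 3 each, adjusted p at most 0.000676, edgeR). The family assignment does not show which of them encodes a cellobiose dehydrogenase. POX08758 had only 8, 3 and 7 counts in the parent libraries (F, S and T), so it passed the filter on low counts through the mutant libraries alone. One AA gene, POX08694 of the multicopper oxidase family AA1, was not called (log2 fold change 1.64, adjusted p = 0.0704, edgeR).

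Among the genes that the study called changed, hydrolases that share a role or a module with the 4 genes were mostly lower. Their direction is no independent result, and 8.93% of all tested genes were called lower. All 8 cellobiohydrolase and endoglucanase genes, which the study had listed as downregulated, fell. Their log2 fold changes ran from −3.10 (POX06983) to −1.19, with a median of −1.79. *Cel5A* (POX06147) missed the fold minimum without mutant replicate S (−0.98). Thus *AA9A* and POX02308 lay below that median, POX01524 close to it and POX08485 above it, at the value of *cbh2* (−1.46). Of 6 genes annotated as β-glucosidase in the study's gene table, whose products split cellobiose to glucose, 5 fell and 1, POX07963, rose (log2 fold change 1.97, adjusted p = 8.22e-05, edgeR), with a median of −1.95. A further gene that the study's text names as a downregulated β-glucosidase gene is not among these 6 and was not counted. All 15 other genes with a CBM1 on the study's list of changed genes fell, 6 of which are also among those 8 genes. They ran from −4.55 (POX06601) to −1.19, with a median of −1.93. *AA9A* lay below and POX08485 above this median of listed genes whose module they share.

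**Figure D4:**
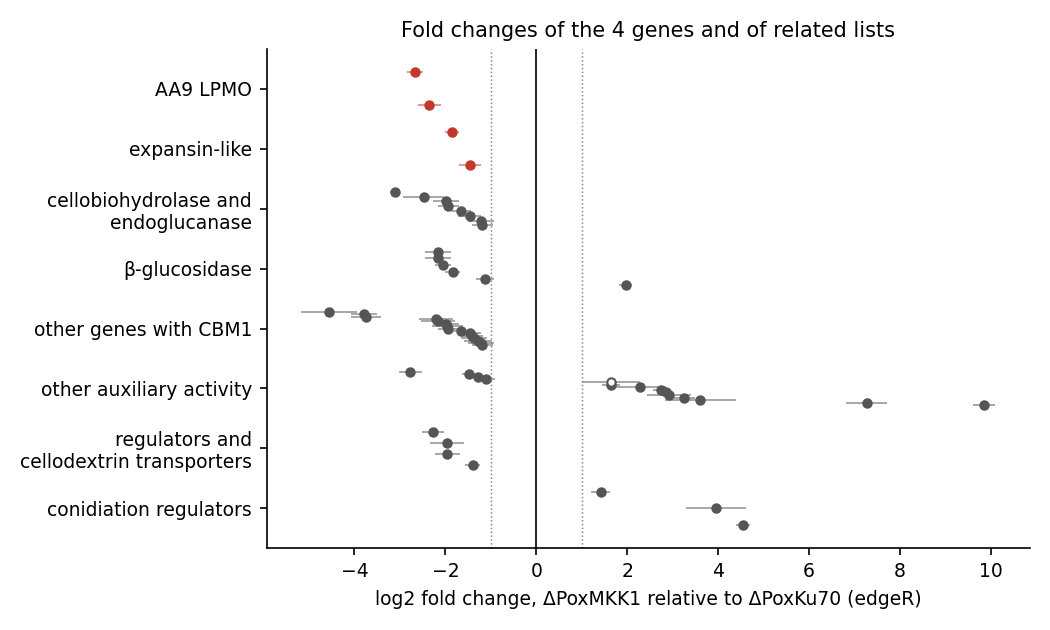
Fitted log2 fold changes (Δ*PoxMKK1* relative to Δ*PoxKu70*, bars show the SE) of the 4 genes (red) and of genes in related lists (grey), with filled circles for called genes, an open circle for the one uncalled gene and dotted lines at the fold minimum. The 4 genes lie between −2.66 and −1.46, within the range of the cellobiohydrolase and endoglucanase genes (−3.10 to −1.19), while 9 of 14 other auxiliary activity genes were called higher.

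The double-psi barrel fold that expansins share with some other proteins is annotated for 2 further genes of the list. Cel45A (POX05570), an endoglucanase with a CBM1, fell from 663 ± 119 to 220 ± 53.9 FPKM (log2 fold change −1.66, adjusted p = 0.00122, edgeR). POX07339, which carries a cerato-platanin entry, a class of small secreted fungal proteins, rose from 125 ± 67.5 to 356 ± 51.7 FPKM (log2 fold change 1.44, adjusted p = 0.0225, edgeR). The call on POX07339 was lost when mutant replicate S or T or parent replicate S was left out, with log2 fold changes of 1.33, 1.43 and 1.41. Among these 2 listed genes with the fold, 1 thus fell and 1 rose, the rise being called only in some of the fits. Both were on the study's list of changed genes, so that they changed is no independent result.

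Only 2 activators of cellulase genes and 2 transporters of cellulose fragments, all from the study's list of changed genes, were examined here. *PoxBrlA*, given above as a conidiation marker and also known to act on cellulase genes, rose (log2 fold change 3.95, adjusted p = 0.00301, edgeR), and other known regulators were not examined. The transcriptional activator genes *PoxClrB* (POX01960) and *PoxCxrB* (POX04420) fell from 88.0 ± 14.9 to 34.9 ± 4.96 and from 212 ± 60.5 to 56.4 ± 24.9 FPKM. The cellodextrin transporter genes *PoxCdtD* (POX05915) and *PoxCdtC* (POX06051) fell from 2104 ± 509 to 459 ± 70.2 and from 7092 ± 1445 to 1916 ± 424 FPKM. All 4 had an adjusted p of at most 0.00522 (edgeR). The study had called these 4 genes and *PoxBrlA* changed on the same contrast, so their adjusted p is no independent support. The log2 fold changes of the 4 ran from −2.26 to −1.40, a range close to that of the LPMO and expansin-like genes.

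Each of the 4 genes was compared with all genes of a mean FPKM of at least 1 by the root mean square difference of their log2 profiles over the 6 libraries, after each profile was centred on its own mean. This measure takes in both the difference between the strains and the differences between libraries of a strain, and the points share libraries and depth. The closest genes to *AA9A* were POX02739, a gene of carbohydrate esterase family CE16 (0.125), POX00562 (0.127) and POX03930 (0.145). The closest to POX02308 were the β-glucosidase gene POX03641 (0.122), POX04688 (0.134) and again POX00562 (0.138).

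The expansin-like genes had other closest genes. POX01524 was closest to POX07484 (0.067), POX07483 (0.084) and POX01080 (0.105), of which POX07484 and POX07483 have adjacent numbers. Both were weakly expressed: the mean FPKM of POX07484 was 14.3 in the parent and 3.96 in the mutant, and that of POX07483 was 7.73 and 2.08. POX08485 was closest to the β-mannosidase gene POX01961 (0.062), to POX05062 (0.066) and to *cbh2* (0.094), the cellobiohydrolase gene of the list. The AA9 genes were near each other (0.219), with POX02308 the 18th closest gene to *AA9A* and *AA9A* the 16th closest to POX02308. The expansin-like genes were farther apart (0.387), POX08485 being the 369th closest gene to POX01524.

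Among the 16 genes numbered within 2 of the 4 genes, 13 were tested. Of these, 3 were called lower, 1 was called higher and 9 were not called, against 8.93% of all tested genes called lower and 10.8% called higher. Beside POX08485, POX08484 fell from 1273 ± 271 to 647 ± 158 FPKM (log2 fold change −1.04, adjusted p = 0.0129, edgeR), and POX08486 rose from 882 ± 134 to 1884 ± 464 FPKM (log2 fold change 1.03, adjusted p = 0.00774, edgeR). Both fold changes lay just past the fold minimum of 1, and these calls were not examined under the alternative settings. Beside *AA9A*, the weakly expressed POX08898 fell from 6.01 ± 1.23 to 0.947 ± 0.110 FPKM (log2 fold change −2.72, adjusted p = 0.000289, edgeR). POX08895, also 1 of the 3 called lower, had 11 to 16 counts in the parent libraries and 1, 0 and 0 in the mutant. It passed the filter on low counts through the parent libraries alone, so its call rests on few reads. No gene numbered within 2 of POX02308 or POX01524 was called. The files give no positions, so whether genes with adjacent numbers adjoin in the genome was not examined here.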

How the data were processed

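Mycelial mRNA of Δ*PoxMKK1* and Δ*PoxKu70* was sequenced on a BGISEQ platform, with 3 libraries per strain assigned from the sample labels. The authors deposited, for 9834 genes per library, expected counts (estimated reads, not normalized, not always whole) and FPKM, normalized by the authors for length and sequencing depth. The submitters' processing notes name BWA 0.7.10-r789, Bowtie2 2.1.0, RSEM 1.2.12 and DESeq2, without their roles. The genome build is not given in the sources used here, nor is the use of strand. Gene names and families come from the study. None of the RefSeq identifiers matched (0), so positions and sequences are not given here. The expected counts of the 4 genes were whole in all libraries, and multi-mapping between paralogs was not examined.

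After rounding, the counts entered the quasi-likelihood test of edgeR 4.0.16 (R 4.3.3, filterByExpr and TMM), without a replicate block, over 8749 genes, with Benjamini-Hochberg adjustment. A gene was called where its adjusted p was below 0.05 and its log2 fold change was 1 or more in size. The scripts were tested on simulated data. Means are given with the SD over 3 libraries, and p-values set the difference between the strains against the spread between these libraries. Profiles were compared on log2(FPKM + 0.5) among 8841 genes. Sums and ratios were formed within each library from FPKM.

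The alternatives were DESeq2 1.42.0, DESeq2 size factors in edgeR, library sizes alone, removal of each library's trend with gene length, no filter on low counts, limma 3.58.1 on log2(FPKM + 0.5) of genes with a mean FPKM of 1 or more, the same with 0.1 or 1 added or on unfiltered genes, a replicate block, omission of each library, a stricter adjusted p of 0.01, the ratio of mean FPKM, CPM for FPKM in sums and profiles, and a mean FPKM of at least 10 for profiles.

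The 4 genes and all lists were chosen with earlier results of these data known. Genes named are the 4 genes, list members that are ends of a range, exceptions or of a stated role, the 3 closest profiles to each gene, genes numbered within 2 of them, and the deleted genes.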

Additional observations from a re-analysis of the deposited data

How the results depend on the processing

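The 4 genes met the call in all 16 fits, which is no support for their difference, since they were chosen on these libraries and this contrast. With 1 library left out, log2 fold changes ran from −2.82 to −2.53 for *AA9A*, −2.57 to −2.19 for POX02308, −1.97 to −1.70 for POX01524 and −1.65 to −1.31 for POX08485. The numbers of genes called higher and lower were 947 and 781, against 858 and 922 after removal of the length trend, which put the median of all tested genes at −0.09 instead of 0.01.

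The AA9 sum as a percentage of the cellulase sum differed by −8.82 percentage points between the strains in FPKM. In CPM, which is not corrected for length, it differed by −5.29. Relative to the parent mean, the mutant mean was 41.7% lower in FPKM and 43.7% lower in CPM. The number of other genes of the expansin fold called higher, 1, was 0 at an adjusted p below 0.01 and 0 to 1 with a library left out. POX08694 passed the call in 6 alternatives. The AA7 gene POX03368 missed the fold minimum without parent F (−0.98) and in limma with 1 added (−0.99). Of the 12 pairs of a gene with a closest profile, 11 were kept in CPM and 9 at a mean FPKM of at least 10.

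Whether the replicate letters pair the libraries was not decided. Deviations of same-lettered libraries correlated at 0.336 (F), 0.032 (S) and 0.127 (T). Those of different letters ran from −0.384 (mutant T with parent F) to 0.173 (mutant T with parent S). With a replicate block, 959 genes were called higher and 780 lower, and POX08694 was added (log2 fold change 2.03).

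With 3 libraries per strain, 1 time point and 1 carbon source, the values cover this condition only. Low-count neighbours such as POX08895 are limited by depth.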
